A study of Homo sapiens with 8 samples.

Results

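ARRDC4 and TXNIP, a pair of alpha-arrestins whose genes respond to glucose, were examined with their relatives ARRDC1, ARRDC2 and ARRDC3 and with MLXIP (the gene of MondoA) and MLX, the transcription factor pair that switches them on. The 7 genes were taken by name from a table of 19411 genes, and 6 of them were tested after a filter on low values. They were chosen by measured values of these same libraries: ARRDC4 was picked out for its high level with the NORAD guide in the parental line, so the values of the 7 genes in that comparison are given as a description with no test, while other genes are tested there. Poly(A) RNA was measured in HCT116, a human colorectal carcinoma line. All groups carried CRISPR interference (CRISPRi), in which a guide RNA leads an inactive Cas9 fused to a repressor to a promoter. There were 4 groups of 2 libraries: the parental line with the guide sgNORAD (parental sgNORAD), the lines circPRE2 and circPRE8 with the same guide (circPRE2 sgNORAD, circPRE8 sgNORAD), and the parental line with the guide sgControl (parental sgControl). The study concerns NORAD, a long noncoding RNA that binds the PUMILIO proteins, which repress messenger RNAs. Neither circPRE line is described in the labels, neither line has a sgControl group here, and the labels do not say whether a line is 1 clone or whether replicates were separate cultures. The p-values therefore measure the spread between these libraries, which may be technical. The level of NORAD itself is not analysed here.

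MondoA and its partner MLX sense glucose 6-phosphate, the product of the hexokinases. When it is abundant the pair moves to the nucleus and binds carbohydrate response elements, which are built of E-box-like motifs, in the promoters of TXNIP and ARRDC4. TXNIP binds thioredoxin, and both arrestins promote the removal of the glucose transporter GLUT1 (the product of SLC2A1) from the cell surface, so that glucose entry is restrained when the sugar is plentiful. Alpha-arrestins recruit ubiquitin ligases of the NEDD4 family to their cargo.

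The windows before the start sites are shown for ARRDC4, TXNIP and MLX, because the glucose response of the pair is known to run through short elements there and because ARRDC4 and MLX hold the perfect E-box CACGTG. All 7 genes matched RefSeq (GRCh38.p14), with 10 annotated starts among them. Each line gives the 250 bases before the start, 5′ to 3′ on the gene's strand, and capitals mark CACGNG on either strand. The windows are chr15:97960453-97960702 on the plus strand for ARRDC4, chr1:145996580-145996829 on the minus strand for TXNIP and chr17:42566850-42567099 on the plus strand for MLX.
ARRDC4: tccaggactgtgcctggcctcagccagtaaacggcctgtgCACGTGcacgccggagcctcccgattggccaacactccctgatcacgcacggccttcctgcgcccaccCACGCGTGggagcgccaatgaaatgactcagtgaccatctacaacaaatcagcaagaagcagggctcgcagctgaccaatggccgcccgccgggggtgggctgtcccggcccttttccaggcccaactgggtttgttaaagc
TXNIP: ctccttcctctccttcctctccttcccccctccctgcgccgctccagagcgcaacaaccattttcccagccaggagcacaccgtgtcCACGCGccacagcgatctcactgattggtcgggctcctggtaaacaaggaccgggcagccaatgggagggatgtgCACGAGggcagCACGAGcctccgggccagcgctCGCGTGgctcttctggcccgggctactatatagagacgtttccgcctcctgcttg
MLX: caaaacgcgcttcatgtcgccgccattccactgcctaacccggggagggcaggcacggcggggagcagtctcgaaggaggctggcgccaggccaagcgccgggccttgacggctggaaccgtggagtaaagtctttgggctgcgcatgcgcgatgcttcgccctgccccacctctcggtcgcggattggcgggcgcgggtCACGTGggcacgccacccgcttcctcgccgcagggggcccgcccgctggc
The E-box CACGTG lay 210 bases before the start of ARRDC4 and 50 bases before that of MLX, and 6.34% of 35116 promoter windows of the same length held it. CACGNG, which includes CACGTG, was in 26.7% of those windows. ARRDC4 held further copies at 142 and 140 bases before the start, which overlap each other, and TXNIP held it at 163, 88, 77 and 55 bases before the start shown. The window of the other annotated start of TXNIP held no copy. In TXNIP a copy was followed after 5 bases by another, at 88 bases before the start, and 0.0456% of the windows (16 in all) held such a repeat. The searches for CACGNG and for its repeat were chosen after the sequences were seen. The spaced pair of CANGNG, 5 free bases and CNCNTG was found in 0.458% of all windows and in none of the 10 windows of these genes. ARRDC2 held CACGNG 3 times at 1 of its starts, ARRDC3 held it 1 time at 1 of its starts, and the windows of ARRDC1 and MLXIP did not hold it. These matches are letters in a window and were not tied to binding of any factor.

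The deposited values were RPKM (reads scaled to gene length and to library size), and the library sizes behind them were 28.39 to 50.28 M (megareads), with parental sgNORAD replicate 1 the smallest. Of 10 colon epithelium markers, 6 or 7 reached 0.5 RPKM in both libraries of each group. VIL1 was at most 0.0144 RPKM, CDH17 at most 0.0733 RPKM and CDX1 was at 0 throughout. EPCAM was at 73.2 and 73.8 RPKM in circPRE8 sgNORAD and at 91.3 to 115 RPKM in the other groups. CDH1 was also lowest in circPRE8 sgNORAD, at 5.78 and 6.18 RPKM against 9.79 to 12.0 RPKM. KRT8, KRT18, KRT19 and KRT20 were instead highest there, KRT19 at 605 and 619 RPKM against 431 to 460 RPKM. Summed over the 10 markers, levels were 1226 and 1253 RPKM in circPRE8 sgNORAD and 967 to 1081 RPKM in the other groups. Summed over 6 fibroblast markers, levels were 4.78 and 4.94 RPKM in parental sgNORAD, 6.04 and 6.48 RPKM in circPRE2 sgNORAD, 8.80 and 13.2 RPKM in circPRE8 sgNORAD, and 4.23 and 4.09 RPKM in parental sgControl. The defining markers DCN and LUM stayed at or below 0.0712 and 0.152 RPKM, and SPARC, at 4.92 and 7.10 RPKM, made up most of the sum in circPRE8 sgNORAD. Markers of leukocytes, endothelium and liver summed to at most 1.11, 0.16 and 0.166 RPKM in any library.

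ARRDC4 (ENSG00000140450.9, hg38 chr15:97960698-97973838, plus strand) was the member that separated the groups most widely. It stood at 3.10 and 3.23 RPKM in parental sgNORAD, 2.82 and 3.03 RPKM in circPRE2 sgNORAD, 0.662 and 0.545 RPKM in circPRE8 sgNORAD, and 0.26 and 0.225 RPKM in parental sgControl. Parental and circPRE2 cells with the NORAD guide were high, circPRE8 cells with the same guide were low, parental sgControl cells were lowest, and no groups overlapped, although parental sgNORAD and circPRE2 sgNORAD lay close together. In bulk RNA, fewer cells with the transcript and less transcript per cell cannot be told apart. The values amount to 358 and 599 reads in parental sgNORAD, 530 and 619 in circPRE2 sgNORAD, 120 and 109 in circPRE8 sgNORAD, and 45 and 41 in parental sgControl, whole to within 0.008 read. At such counts, counting error is small beside the distances to circPRE8 sgNORAD and parental sgControl. It is not small beside the distance between parental sgNORAD and circPRE2 sgNORAD. In parental sgNORAD against parental sgControl the difference in mean log2(RPKM + 0.1) was 3.25, a ratio of 9.54, and 1 of 11585 tested genes had a larger one. It was 3.18 to 3.33 when any 1 library was left out, and the added 0.1 RPKM makes the ratio smaller than that of the RPKM values for a gene at this level.

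**Figure D1:**
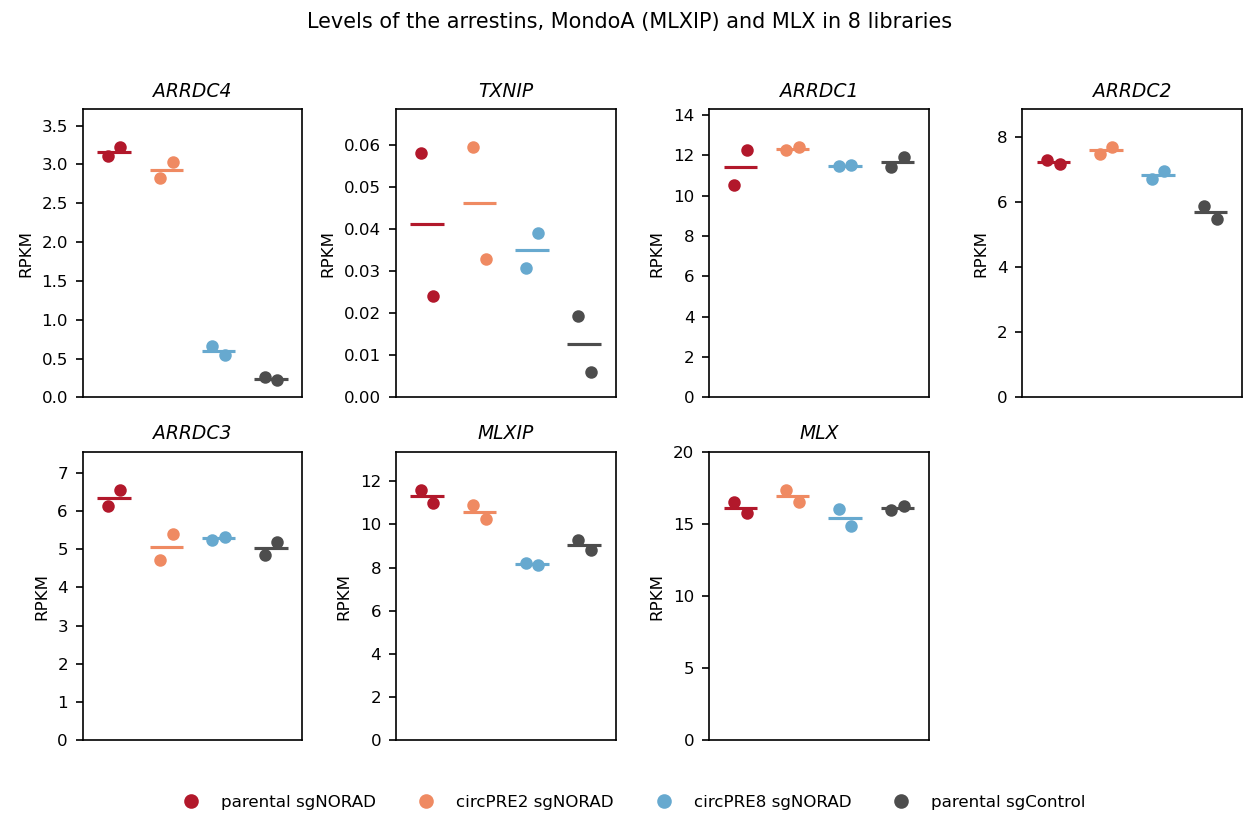
Level of each of the 7 genes in RPKM (vertical axes, each starting at 0) in the 2 libraries (points) of the 4 groups (colours), with the group mean as a bar. ARRDC4 was at 2.82 to 3.23 RPKM in parental sgNORAD and circPRE2 sgNORAD and at 0.225 to 0.662 RPKM in circPRE8 sgNORAD and parental sgControl, while ARRDC1 and MLX moved little and TXNIP stayed at or below 0.0596 RPKM.

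The circPRE8 line differed from both other lines with the same guide. In circPRE8 sgNORAD against circPRE2 sgNORAD, which shares no library with the comparison that picked the gene, ARRDC4 fell by 2.11 on the log2 scale (95% interval -2.35 to -1.87, SE 0.11, limma with Benjamini-Hochberg adjustment, adjusted p = 1.29e-07), and 3 of 11585 genes had a lower difference. The members were chosen with earlier results of these data known, so this p-value is not independent of the choice either. Against parental sgNORAD, whose libraries took part in the choice, the log2 difference of circPRE8 sgNORAD was -2.22 (interval -2.46 to -1.98, limma adjusted p = 4.91e-08), a ratio of 0.215. The summed fibroblast markers and the summed colon epithelium markers given above were highest in circPRE8 sgNORAD, while EPCAM and CDH1 were lowest. The part of these markers in this and in every other circPRE8 result was not tested. In circPRE2 sgNORAD against parental sgNORAD the difference was -0.11 with an interval of -0.35 to 0.13 (limma adjusted p = 0.521), so a difference of either sign within those bounds was not separated from 0.

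Against parental sgControl, whose libraries also took part in the choice, ARRDC4 was higher by 3.14 on the log2 scale in circPRE2 sgNORAD (interval 2.90 to 3.39, limma adjusted p = 8.61e-09) and by 1.03 in circPRE8 sgNORAD (interval 0.79 to 1.28, adjusted p = 3.01e-05). ARRDC4 was picked for its difference between parental sgNORAD and parental sgControl, so p-values against either group are not independent of the choice. By group mean the levels ran, from high to low, parental sgNORAD, circPRE2 sgNORAD, circPRE8 sgNORAD and parental sgControl, and the first neighbours in that order were not separated by the test. ARRDC4 kept its call in the 4 comparisons where it had one under every alternative setting and with any 1 library left out. The size depends on the pseudocount: with 1 RPKM added in place of 0.1, circPRE8 sgNORAD differed from parental sgControl by 0.37.

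TXNIP (ENSG00000265972.5, hg38 chr1:145992435-145996600, minus strand), the thioredoxin-binding arrestin, was close to absent. It stood at 0.0583 and 0.0241 RPKM in parental sgNORAD, 0.0596 and 0.0329 RPKM in circPRE2 sgNORAD, 0.0309 and 0.0392 RPKM in circPRE8 sgNORAD, and 0.0194 and 0.00615 RPKM in parental sgControl. These values are 6 and 4 reads in parental sgNORAD, 10 and 6 in circPRE2 sgNORAD, 5 and 7 in circPRE8 sgNORAD, and 3 and 1 in parental sgControl, 42 reads in all. The gene failed the filter of 0.5 RPKM in at least 2 libraries, and no fold change or test is given, since a count of 3 is the limit that a count of 0 allows and parental sgControl was at or under it. Whether TXNIP followed ARRDC4 was not tested, and a small change could not be seen at this depth. The TXNIP reads of circPRE2 sgNORAD (10 and 6) and circPRE8 sgNORAD (5 and 7) overlapped. Those of ARRDC4 (530 and 619, against 120 and 109) did not. For both genes the parental sgControl libraries were the lowest (3 and 1 reads of TXNIP, 45 and 41 of ARRDC4). With so few TXNIP reads, neither observation shows whether the genes moved together. Of its annotated neighbours within 100 kb, RBM8A was at 15.7 to 18.3 RPKM, LIX1L at 6.74 to 9.85 RPKM and POLR3GL at 4.77 to 6.53 RPKM, well above TXNIP in each case. ARRDC5, an arrestin relative outside the 7 genes, had at most 1 read per library.

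ARRDC2 and ARRDC3 are close relatives of ARRDC4, and ARRDC3 is known as an adaptor in the turnover of beta-adrenergic receptors. ARRDC2 (hg38 chr19:18001132-18014102, plus strand) was at 7.29 and 7.16 RPKM in parental sgNORAD, 7.48 and 7.70 RPKM in circPRE2 sgNORAD, 6.71 and 6.96 RPKM in circPRE8 sgNORAD, and 5.89 and 5.47 RPKM in parental sgControl. All 6 libraries with the NORAD guide were above both libraries with the control guide. The log2 difference from parental sgControl was 0.34 in parental sgNORAD, 0.41 in circPRE2 sgNORAD (limma adjusted p = 9.74e-05) and 0.26 in circPRE8 sgNORAD (adjusted p = 0.00212). Its fall of 0.15 in circPRE8 sgNORAD against circPRE2 sgNORAD passed narrowly (limma adjusted p = 0.0365) and did not pass when any 1 of those 4 libraries was left out (adjusted p = 0.066 to 0.178).

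ARRDC3 (hg38 chr5:91368724-91383359, minus strand) was instead high in 1 group. Its level was 6.12 and 6.56 RPKM in parental sgNORAD, 4.72 and 5.40 RPKM in circPRE2 sgNORAD, 5.24 and 5.32 RPKM in circPRE8 sgNORAD, and 4.85 and 5.19 RPKM in parental sgControl. The parental sgNORAD libraries lay above the other 6. Among those, circPRE2 sgNORAD overlapped both other groups. The circPRE8 sgNORAD libraries lay just above those of parental sgControl, a difference that did not pass (log2 difference 0.07, limma adjusted p = 0.432). Against parental sgNORAD, ARRDC3 fell by 0.32 in circPRE2 sgNORAD (interval -0.47 to -0.17, limma adjusted p = 0.00853) and by 0.26 in circPRE8 sgNORAD (interval -0.41 to -0.11, adjusted p = 0.00827). The first did not pass without circPRE2 sgNORAD replicate 1 (adjusted p = 0.0996) and the second did not pass without parental sgNORAD replicate 2 (adjusted p = 0.0503). ARRDC3 and ARRDC4 therefore differed in circPRE2 cells, where ARRDC4 was near the parental sgNORAD level and ARRDC3 near that of parental sgControl, though the contrast between the 2 genes was not itself tested.

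ARRDC1 (hg38 chr9:137605654-137615360, plus strand), which recruits TSG101 to bud vesicles from the plasma membrane, was at 10.5 and 12.3 RPKM in parental sgNORAD, 12.2 and 12.4 RPKM in circPRE2 sgNORAD, 11.5 and 11.5 RPKM in circPRE8 sgNORAD, and 11.4 and 11.9 RPKM in parental sgControl. The groups overlapped except circPRE2 sgNORAD, which lay above circPRE8 sgNORAD and parental sgControl. It passed in none of the 5 tested comparisons (limma adjusted p = 0.199 to 0.852), and each interval lay within -0.23 and 0.25 on the log2 scale. Without parental sgNORAD replicate 2 it passed in circPRE2 sgNORAD against parental sgNORAD, with a difference of 0.23 (adjusted p = 0.0101). ARRDC1, ARRDC2, ARRDC3 and MLX each overlap another annotated gene, ARRDC1 along most of its length on the same strand, and since counting is not stated to use strand their values are uncertain to that extent.

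MLXIP (hg38 chr12:122078722-122147347, plus strand), which encodes MondoA, was at 11.6 and 11.01 RPKM in parental sgNORAD, 10.9 and 10.2 RPKM in circPRE2 sgNORAD, 8.21 and 8.14 RPKM in circPRE8 sgNORAD, and 9.30 and 8.82 RPKM in parental sgControl. The circPRE8 libraries were the lowest of all 8 and did not overlap any group. MLXIP fell by 0.37 in circPRE8 sgNORAD against circPRE2 sgNORAD (interval -0.47 to -0.26, limma adjusted p = 0.000169) and by 0.46 against parental sgNORAD (interval -0.57 to -0.35, adjusted p = 1.63e-05). Both calls held with any 1 library left out. Parental sgNORAD was 0.32 above parental sgControl, a description only, and circPRE2 sgNORAD was 0.22 above it (limma adjusted p = 0.00429, and 0.055 without circPRE2 sgNORAD replicate 1). The fall of 0.15 in circPRE8 sgNORAD against parental sgControl (limma adjusted p = 0.0353) did not pass without parental sgControl replicate 1 (adjusted p = 0.218) or without circPRE8 sgNORAD replicate 1 or 2 (adjusted p = 0.0971 and 0.132). MLXIP and ARRDC4 were thus both lower in circPRE8 sgNORAD than in the other groups with the guide, whereas against parental sgControl ARRDC4 was higher there and MLXIP was not.

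MLX (hg38 chr17:42567068-42573239, plus strand), the common partner of MondoA and of its paralog ChREBP, was nearly level. It had 16.5 and 15.8 RPKM in parental sgNORAD, 17.4 and 16.5 RPKM in circPRE2 sgNORAD, 16.0 and 14.9 RPKM in circPRE8 sgNORAD, and 16.0 and 16.3 RPKM in parental sgControl. Its fall of 0.13 in circPRE8 sgNORAD against circPRE2 sgNORAD (limma adjusted p = 0.0404) did not pass without circPRE2 sgNORAD replicate 1 or circPRE8 sgNORAD replicate 2 (adjusted p = 0.26 and 0.28), nor without either parental sgControl library (adjusted p = 0.0534 and 0.0536). No other comparison gave it a call, with limma adjusted p = 0.231 to 0.347. MLXIPL, the gene of ChREBP, was at 10.98 and 13.8 RPKM in parental sgNORAD, 15.5 and 14.3 RPKM in circPRE2 sgNORAD, 9.54 and 11.3 RPKM in circPRE8 sgNORAD, and 14.7 and 12.5 RPKM in parental sgControl. MLXIPL fell by 0.52 in circPRE8 sgNORAD against circPRE2 sgNORAD (limma adjusted p = 0.00266) and by 0.38 against parental sgControl (adjusted p = 0.0156).

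Per length, the mean level over the 8 libraries was highest for MLX (16.2 RPKM), followed by ARRDC1 (11.7), MLXIP (9.78), ARRDC2 (6.83), ARRDC3 (5.43), ARRDC4 (1.73) and TXNIP (0.0338). ARRDC1 and MLXIP overlapped in their ranges, as did ARRDC2 and ARRDC3, whereas every MLX value was above every ARRDC1 value. ARRDC4 was above 50.3% of the genes of the table by its mean and TXNIP above 28.1%.

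In parental sgNORAD against parental sgControl, the comparison that picked ARRDC4, 37.3% of all tested genes passed (20.9% higher and 16.4% lower), and no count of the members is given. Between circPRE2 sgNORAD and parental sgNORAD the members had 1 of 6 passing, which was lower, beside 18.8% of all genes (10.9% higher and 7.91% lower). In circPRE8 sgNORAD against parental sgNORAD 3 of 6 passed, all lower, beside 52.2% of all genes (23.6% higher and 28.6% lower). In circPRE8 sgNORAD against circPRE2 sgNORAD 4 of 6 passed, all lower, beside 43.6% of all genes (18.0% higher and 25.7% lower), and 2 of 6 passed without circPRE2 sgNORAD replicate 1, without circPRE8 sgNORAD replicate 2 and under 4 other settings. Against parental sgControl 3 of 6 passed both in circPRE2 sgNORAD, beside 43.0% of all genes, and in circPRE8 sgNORAD, beside 40.5%. With 6 genes, none of these counts is read as a result about the members. The median log2 difference of the 6 was -0.14 in circPRE8 sgNORAD against circPRE2 sgNORAD, beside -0.04 over all genes, and -0.17 against parental sgNORAD, beside -0.02.

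**Figure D2:**
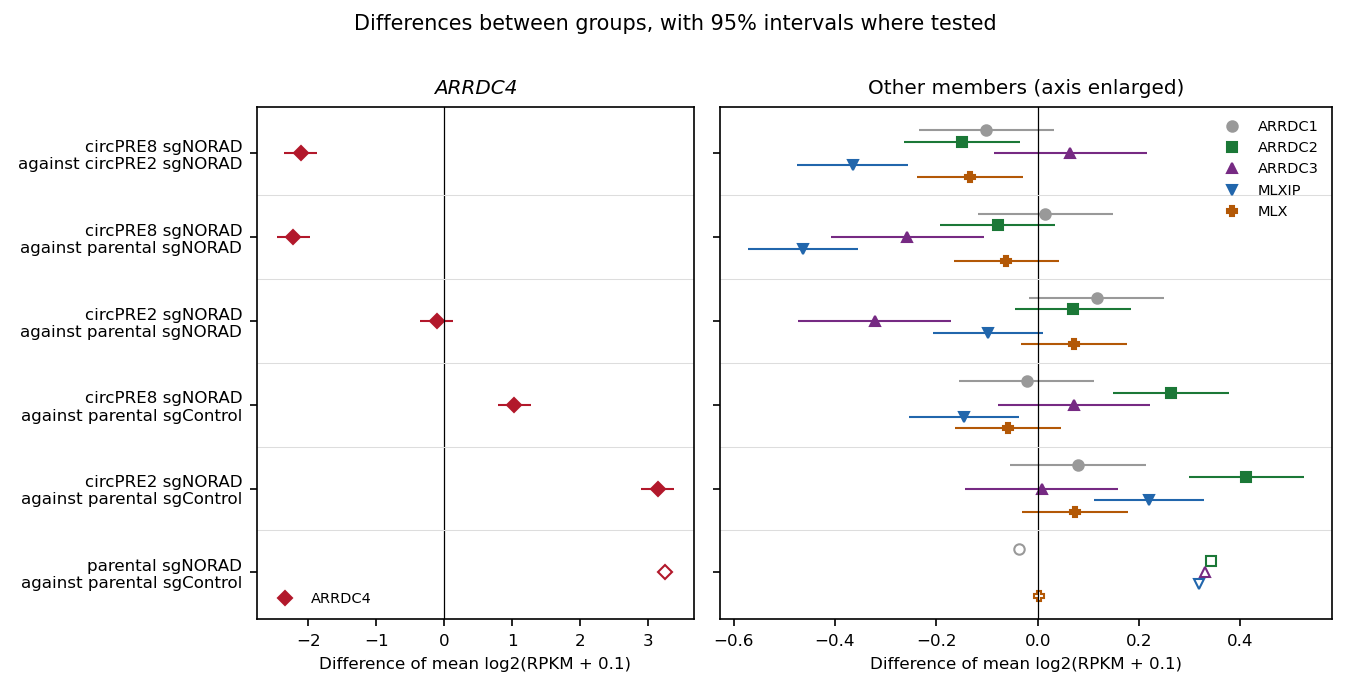
Difference of mean log2(RPKM + 0.1) between groups (horizontal axes) for ARRDC4 (left) and the other 5 tested members (right, on an enlarged axis), with 95% limma intervals as lines and open symbols for the comparison that picked ARRDC4, which has no test. ARRDC4 spans -2.22 to 3.25, and the others lie between -0.46 and 0.41.

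Genes whose profile over the 8 libraries lay near to that of ARRDC4 were found among 11585 tested genes by the root mean square difference of mean-centred log2(RPKM + 0.1). This is a description, over libraries that also chose ARRDC4. They included MMP14, a membrane-bound matrix metalloprotease (0.19), BMP5, a bone morphogenetic protein (0.34), RGS2, a regulator of G protein signalling (0.37), and LAMA4, a laminin chain (0.44). BMP5 was at 0.175 and 0.0869 RPKM in circPRE8 sgNORAD and 0.0059 and 0.0056 RPKM in parental sgControl. LAMA4 was at 0.141 and 0.107 RPKM and at 0.0842 and 0.0879 RPKM there. Both passed the filter only through parental sgNORAD and circPRE2 sgNORAD. Their low values are near or below the added 0.1 RPKM, so their nearness depends on it. A flat profile would be 1.39 away and MLXIP was 1.25 away. MMP14 stood at 4.16 and 4.44 RPKM in parental sgNORAD, 3.79 and 3.64 RPKM in circPRE2 sgNORAD, 0.97 and 0.929 RPKM in circPRE8 sgNORAD, and 0.59 and 0.385 RPKM in parental sgControl. RGS2 stood at 8.28 and 8.95 RPKM in parental sgNORAD, 7.61 and 7.38 RPKM in circPRE2 sgNORAD, 2.60 and 2.23 RPKM in circPRE8 sgNORAD, and 1.34 and 1.65 RPKM in parental sgControl. Both have the order of the groups seen for ARRDC4, without any overlap between the first pair of groups and the last. They were chosen for nearness to the profile of ARRDC4, so this likeness follows from the choice and is not a separate result.

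**Figure D3:**
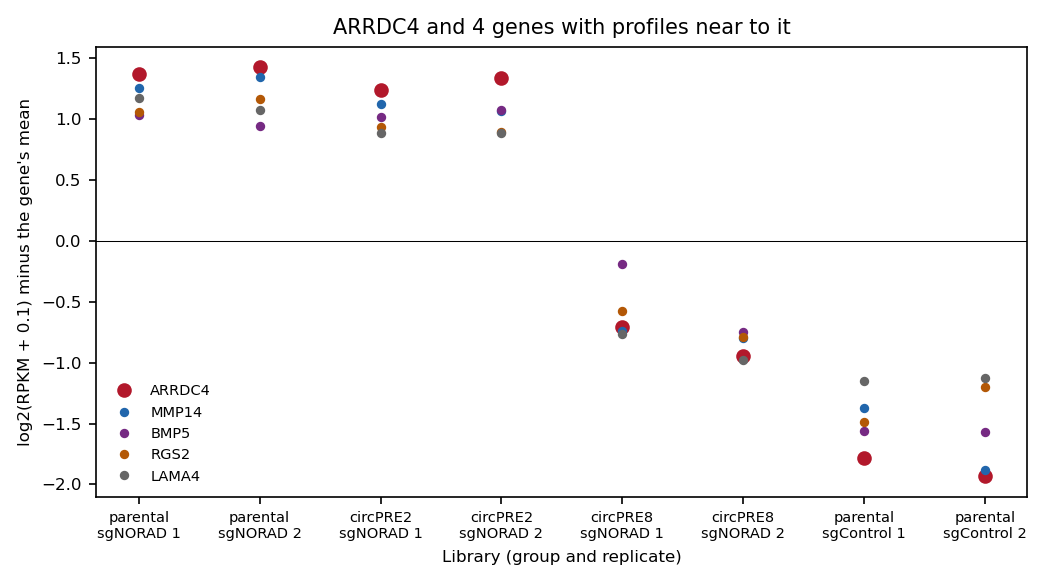
Mean-centred log2(RPKM + 0.1) in each library (horizontal axis) for ARRDC4 (large points) and 4 genes with profiles near to it (small points). All 5 genes were above their mean in parental sgNORAD and circPRE2 sgNORAD and below it in circPRE8 sgNORAD and parental sgControl, and MMP14 was 0.19 from ARRDC4 by root mean square. The 4 genes were chosen for this nearness, so their likeness is not a separate result.

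Genes of the surrounding pathway were counted from lists of known members. HK2, the hexokinase induced in many tumours and itself a known MondoA target, was at 13.0 and 12.7 RPKM in parental sgNORAD, 9.42 and 9.25 RPKM in circPRE2 sgNORAD, 5.43 and 4.85 RPKM in circPRE8 sgNORAD, and 9.52 and 9.86 RPKM in parental sgControl. Like ARRDC4 it was lower in circPRE8 sgNORAD than in circPRE2 sgNORAD (log2 difference -0.85, limma adjusted p = 7.19e-07). Unlike ARRDC4, HK2 was also lower in circPRE8 sgNORAD than in parental sgControl (log2 difference -0.90, limma adjusted p = 4.12e-07). SLC2A1, which encodes the cargo of both arrestins, had 111.5 and 110.9 RPKM in circPRE8 sgNORAD, against 65.2 and 65.9 RPKM in circPRE2 sgNORAD (log2 difference 0.76, limma adjusted p = 1.35e-07). It had 40.9 and 38.3 RPKM in parental sgNORAD, against 52.1 and 54.9 RPKM in parental sgControl (log2 difference -0.43, limma adjusted p = 1.47e-05). In those comparisons SLC2A1 and ARRDC4 differed in sign, but against parental sgControl both were higher, SLC2A1 by 1.05 in circPRE8 sgNORAD (limma adjusted p = 1.26e-08) and by 0.29 in circPRE2 sgNORAD (adjusted p = 0.000176). SLC2A1 also rose by 0.73 in circPRE2 sgNORAD against parental sgNORAD (limma adjusted p = 1.06e-06), a comparison in which ARRDC4 did not pass. These are transcript levels, and GLUT1 protein at the cell surface was not measured here. SLC2A3, the gene of the transporter GLUT3, was high in both circPRE lines: it had 5.80 and 5.93 RPKM in circPRE2 sgNORAD, 6.47 and 6.33 RPKM in circPRE8 sgNORAD, 1.04 and 0.977 RPKM in parental sgNORAD, and 1.71 and 1.55 RPKM in parental sgControl. SLC2A3 rose by 2.43 on the log2 scale in circPRE2 sgNORAD against parental sgNORAD (limma adjusted p = 3.55e-09).

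In the list of glucose transporters and hexokinases 10 of 16 genes were tested. Between parental sgNORAD and parental sgControl 2 rose and 4 fell, beside 20.9% higher and 16.4% lower over all genes, with SLC2A12 the largest rise (log2 difference 0.48, limma adjusted p = 0.00738), and 1 rose without parental sgNORAD replicate 1. The circPRE2 line had 4 rises and 1 fall, that of HK2, against parental sgNORAD (10.9% and 7.91% over all genes), with 2 rising without circPRE2 sgNORAD replicate 1 and 2 falling without parental sgNORAD replicate 2. In circPRE8 sgNORAD 3 rose and 2 fell against parental sgNORAD (23.6% and 28.6% over all genes), and 3 rose and 4 fell against circPRE2 sgNORAD (18.0% and 25.7%). Against parental sgNORAD 1 fell without parental sgNORAD replicate 2 or circPRE8 sgNORAD replicate 2, and against circPRE2 sgNORAD 2 fell without circPRE2 sgNORAD replicate 1. The median difference stayed between -0.12 and 0.15 in these 4 comparisons.

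Of 20 genes known as MondoA or ChREBP targets, not counting ARRDC4 and TXNIP, 16 were tested. In circPRE8 sgNORAD against circPRE2 sgNORAD 9 fell and 1, KLF10, rose, beside 25.7% lower and 18.0% higher over all genes. The number of falls was 7 to 9 under the other pseudocounts, filters, scalings and models. The median was -0.15 beside -0.04 over all genes, and HK2 fell most. HK2 is also counted in the list of glucose transporters and hexokinases. Against parental sgNORAD 7 fell and 3 rose in circPRE8 sgNORAD (28.6% and 23.6% over all genes), with BHLHE40, a clock-linked repressor, the largest rise (14.2 and 14.8 RPKM, against 11.5 and 10.99 RPKM in parental sgNORAD). Between circPRE2 sgNORAD and parental sgNORAD 3 rose and 1 fell (10.9% and 7.91% over all genes). In parental sgNORAD against parental sgControl, where ARRDC4 was high, 4 rose and 5 fell (20.9% and 16.4% over all genes) with a median of -0.01 beside 0.02, and 3 fell without parental sgControl replicate 2 or parental sgNORAD replicate 2. There SCD, the stearoyl-CoA desaturase, fell (444.2 and 410.3 RPKM in parental sgNORAD, against 663.7 and 672.1 RPKM in parental sgControl, limma adjusted p = 1.72e-06), and GPD1, a glycerol phosphate dehydrogenase with a low level, rose (0.673 and 0.71 RPKM in parental sgNORAD, against 0.449 and 0.338 RPKM in parental sgControl, adjusted p = 0.0033). HK2, also in this list, rose there as well (log2 difference 0.40, limma adjusted p = 0.000207). Calls among targets other than ARRDC4 thus went in both directions in that comparison. With 16 genes, the counts are not read as a result about the targets.

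The list of MLX and MAX network factors held 9 genes, all tested. In circPRE8 sgNORAD against circPRE2 sgNORAD 6 passed, all lower, beside 25.7% lower over all genes, with a median of -0.37 beside -0.04. MYC, which competes for MAX and drives growth genes, was at 92.1 and 93.0 RPKM in parental sgNORAD, 72.0 and 71.5 RPKM in circPRE2 sgNORAD, 38.6 and 35.9 RPKM in circPRE8 sgNORAD, and 58.2 and 59.5 RPKM in parental sgControl. It ranked the first 3 groups as ARRDC4 and MLXIP did and, like MLXIP, was lowest in circPRE8 sgNORAD. Against parental sgNORAD 5 fell and 2 rose in circPRE8 sgNORAD (28.6% and 23.6% over all genes), and 1 rose without parental sgNORAD replicate 1 or circPRE8 sgNORAD replicate 1. Between circPRE2 sgNORAD and parental sgNORAD 2 rose and 1 fell (10.9% and 7.91% over all genes). There 1 rose without parental sgNORAD replicate 1 or either circPRE2 library, and 2 fell without parental sgNORAD replicate 2. In parental sgNORAD against parental sgControl 5 rose and 1, MXD3, fell (20.9% and 16.4% over all genes), while 2 fell without parental sgNORAD replicate 2. The largest rise was that of MXD4, a MYC antagonist, at 7.77 and 8.56 RPKM in parental sgNORAD, against 4.45 and 4.47 RPKM in parental sgControl (log2 difference 0.86, limma adjusted p = 1.16e-06). Like ARRDC2, MXD4 was high in every library with the NORAD guide, with 9.60 and 9.06 RPKM in circPRE2 sgNORAD and 9.55 and 9.20 RPKM in circPRE8 sgNORAD. MXD3 overlaps RAB24 on the same strand, so its values are uncertain.

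**Figure D4:**
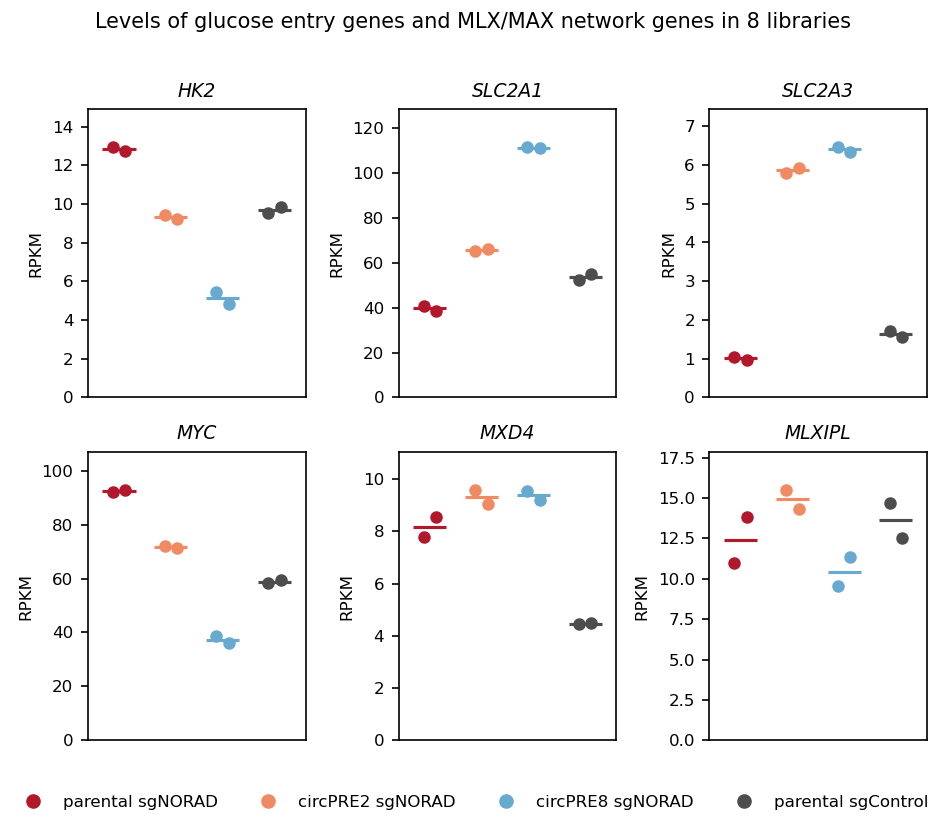
Level in RPKM (vertical axes, each starting at 0) of HK2, SLC2A1, SLC2A3, MYC, MXD4 and MLXIPL in the 2 libraries (points) of each group (colours), with the group mean as a bar. HK2 and MYC were lowest and SLC2A1 highest in circPRE8 sgNORAD, and MXD4 was at 7.77 RPKM or more in all libraries with the NORAD guide, against 4.45 and 4.47 RPKM in parental sgControl.

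The thioredoxin system, to which TXNIP binds, was represented by 20 genes, of which 19 were tested. In circPRE8 sgNORAD 11 rose and 1 fell against circPRE2 sgNORAD, beside 18.0% higher and 25.7% lower over all genes, with a median of 0.12 beside -0.04. Against parental sgNORAD 8 rose and 2 fell in circPRE8 sgNORAD (23.6% and 28.6% over all genes), with 1 falling without parental sgNORAD replicate 1 or circPRE8 sgNORAD replicate 2. GLRX, a glutaredoxin, was at 3.96 and 4.19 RPKM in circPRE8 sgNORAD, against 2.45 and 2.51 RPKM in parental sgNORAD (log2 difference 0.69, limma adjusted p = 6.23e-06), though it lies within RHOBTB3 on the other strand. TXNRD3, a thioredoxin reductase, fell by 0.39 in circPRE8 sgNORAD against circPRE2 sgNORAD (limma adjusted p = 0.00128). Between circPRE2 sgNORAD and parental sgNORAD 3 rose and 2 fell (10.9% and 7.91% over all genes), and leaving out circPRE2 sgNORAD replicate 1 left 1 rise and 0 falls. Leaving out parental sgNORAD replicate 1 also left 0 falls, and without parental sgNORAD replicate 2 there was 1 rise. In parental sgNORAD against parental sgControl 4 rose and 4 fell (20.9% and 16.4% over all genes), with MAP3K5, a stress kinase held by thioredoxin, the largest rise (log2 difference 0.29, limma adjusted p = 0.00226), and 2 rose without parental sgControl replicate 1. TXNDC5, a disulfide isomerase, fell most there (4.38 and 2.37 RPKM in parental sgNORAD, against 6.80 and 6.45 RPKM in parental sgControl, limma adjusted p = 0.00734). In circPRE8 sgNORAD it had 4.59 and 4.42 RPKM, against 1.53 and 2.67 RPKM in circPRE2 sgNORAD (log2 difference 1.11, limma adjusted p = 0.00368). SRXN1, which restores oxidised peroxiredoxins, had 2.43 and 3.83 RPKM in circPRE2 sgNORAD, against 6.24 and 4.40 RPKM in parental sgNORAD (log2 difference -0.76, limma adjusted p = 0.0128). TXNDC5 and SRXN1 each overlap another annotated gene on the same strand, and whether reads were shared was not tested.

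Partners of the alpha-arrestins were the last list. Of 13 HECT-type ubiquitin ligases and ESCRT proteins, which sort membrane cargo, 12 were tested. Between parental sgNORAD and parental sgControl 3 passed, all lower in parental sgNORAD, beside 16.4% lower over all genes, led by HECW1 (0.589 and 0.545 RPKM in parental sgNORAD, against 0.865 and 0.862 RPKM in parental sgControl), and 5 were lower under other scalings. For circPRE2 sgNORAD against parental sgNORAD limma called 0, beside 18.8% of all genes, and 0 had an unadjusted p under 0.05. In circPRE8 sgNORAD 3 rose against parental sgNORAD and 4 rose against circPRE2 sgNORAD (23.6% and 18.0% over all genes), led in both by SMURF2 (42.1 and 42.4 RPKM in circPRE8 sgNORAD, 35.5 and 34.6 RPKM in circPRE2 sgNORAD, 38.0 and 35.7 RPKM in parental sgNORAD), and the count of 4 became 2 without circPRE2 sgNORAD replicate 1 and 1 without circPRE2 sgNORAD replicate 2 or circPRE8 sgNORAD replicate 1. The beta-arrestin gene ARRB2 fell by 0.52 in circPRE8 sgNORAD against circPRE2 sgNORAD (8.04 and 7.83 RPKM in circPRE8 sgNORAD, against 11.5 and 11.4 RPKM in circPRE2 sgNORAD, limma adjusted p = 4.85e-06), and ARRB1 fell by 0.31 (adjusted p = 0.00254).

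The PUMILIO proteins that NORAD binds recognise TGTANATA in 3′ untranslated regions. The longest annotated 3′ untranslated region (GENCODE 29) held 1 copy in ARRDC1, whose region has 220 bases, and 1 in MLXIP, whose region has 5535 bases, and the other 5 genes held none. Both sites are shown 5′ to 3′ with the motif in capitals.
ARRDC1: gagacaactccTGTAAATAaaacactttat
MLXIP: tttgtaaaacgTGTAGATAaccgcagtggt
The motif was in 29.1% of 11540 tested genes with such a region, whose median length was 1334 bases. ARRDC4, the member that differed most, has a region of 2651 bases without these letters. Only this motif in the longest annotated region was searched, and binding by PUMILIO proteins was not tested.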

How the data were processed

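For 8 poly(A) libraries the authors deposited RPKM values of 19411 genes in 1 table. The submitters' processing notes name STAR, featureCounts 1.6.0, edgeR 3.24.0 and the build hg38; annotation, strand use and filters are not stated there. A series design text that describes triplicates and a small RNA kit differs from these libraries and was not used. Groups come from the sample titles. The members and lists were chosen with earlier results of these data known.

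Differences were tested with limma 3.58.1 (R 4.3.3) on log2(RPKM + 0.1), for the 11585 genes that reached 0.5 RPKM in 2 or more libraries, with 1 coefficient per group over all 8 libraries, an intensity trend and Benjamini-Hochberg adjustment over all tested genes (two-sided, threshold 0.05, 4 residual degrees of freedom, 11.6 after moderation). The test was checked on simulated data. Each group enters 3 of the 6 comparisons, which therefore share libraries. Fold changes are on the log2(RPKM + 0.1) scale and understate those of low genes. Named list genes are the largest rise and fall past the threshold per list and comparison, with SLC2A1, SLC2A3 and HK2; MLXIPL, ARRB1 and the neighbours of TXNIP were added to these. Of the 5 genes with the profiles nearest to that of ARRDC4, 4 are given and 1 is not reported here. The lists were counted in the 4 comparisons that change the guide alone or the line alone. The gene identifiers of 19361 rows matched GENCODE 29, and 27 symbols were restored from identifiers. Reads were recovered from the RPKM steps, where 84.5% to 85.8% of low values were whole to within 0.1 read with annotated lengths. ARRDC4 needed a length of 4062 bases, against 4072 annotated. Reads serve for depth only, and no count test was run. Counting error alone covers the depth limits. TXNIP, planned as a test, failed the filter. Alternatives were other pseudocounts, filters and scalings, no trend, a replicate block, only the libraries compared, and each library left out.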

Additional observations from a re-analysis of the deposited data

How the results depend on the processing

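ARRDC4 kept its direction and its side of the threshold in each tested comparison under all alternatives. Its log2 difference in parental sgNORAD against parental sgControl was 3.66 with a pseudocount of 0.01 and 1.75 with 1, against 3.25. The number of members called in circPRE8 sgNORAD against circPRE2 sgNORAD was 2, not 4, with no filter on low values, RLE scaling, upper quartile scaling or no intensity trend, since ARRDC2 and MLX were lost, and 2 to 4 with 1 library left out. For circPRE2 sgNORAD against parental sgNORAD it was 0 to 2 with 1 library left out. Differences that were never called changed sign: that of ARRDC3 in circPRE2 sgNORAD against parental sgControl became -0.036 under RLE and -0.023 under upper quartile scaling, and -0.088 to 0.103 with 1 library left out. With 1 library left out, ARRDC1 was -0.094 to 0.124 in circPRE8 sgNORAD against parental sgNORAD and -0.050 to 0.0058 against parental sgControl, and ARRDC3 was -0.032 to 0.159 in circPRE8 sgNORAD against circPRE2 sgNORAD. The fall of MLXIP in circPRE8 sgNORAD against parental sgControl did not pass with no filter (adjusted p = 0.0598) or no trend (0.064). The causes were not tested.

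Replicate numbers were not shown to pair libraries: same-numbered deviations correlated at -0.173 to 0.211 over the 6 pairs of groups, and the replicate block changed no member's call (ARRDC4 -2.11, adjusted p = 1.02e-06, in circPRE8 sgNORAD against circPRE2 sgNORAD). It left the members called at 1, 3, 4, 3 and 3 in the 5 tested comparisons. Higher genes made up 41.2% of calls in circPRE8 sgNORAD against circPRE2 sgNORAD, but 54.6% under RLE and 52.1% under upper quartile scaling. That share was 57.8% and 45.6% (RLE) in circPRE2 sgNORAD against parental sgNORAD, and 58.6%, 44.3% (RLE) and 47.8% (upper quartile) in circPRE2 sgNORAD against parental sgControl. It also crossed 50% in parental sgNORAD against parental sgControl (56.1%, 47.7% and 46.4%) and in circPRE8 sgNORAD against parental sgNORAD (45.2%, 51.0% and 52.6%). No scaling moved the median of all genes by over 0.1. Calls over all genes in circPRE2 sgNORAD against parental sgNORAD numbered 2173, and 713 without circPRE2 sgNORAD replicate 1. Of list counts, those in circPRE2 sgNORAD against parental sgNORAD moved most: with no filter or no trend, thioredoxin genes numbered 1 rise and 0 falls in place of 3 and 2, glucose entry genes 2 rises in place of 4, and MLX and MAX network genes 1 rise in place of 2. Other list counts moved with no trend to 3 falls in place of 5 among targets (parental sgNORAD against parental sgControl) and 1 rise in place of 4 among ligases (circPRE8 sgNORAD against circPRE2 sgNORAD).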
